A study of Caenorhabditis elegans with 6 samples.

Results

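ADR-1 binding was examined at 4 chaperone genes of Caenorhabditis elegans: dnj-24 and dnj-20, which encode J-domain proteins, hsp-6, which encodes the mitochondrial HSP70, and cct-8, which encodes the theta subunit of the cytosolic chaperonin. The members were the rows of the authors' list of uniquely annotated significant read clusters whose gene name was one of these 4 names. They came to 6 clusters of 636 in the list, and the list covers 363 genes in all. dnj-20 had 3 of the 6 and the other genes had 1 each.

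The libraries were 3 CLIP pulldowns with anti-FLAG beads and 3 size-matched inputs, all from whole, unsynchronised mixed-stage animals of strain HAH59, which carries a 3xFLAG tag on ADR-1, grown on OP50 bacteria at 20 °C. In CLIP, ultraviolet light joins RNA to the proteins that touch it, RNase trims the RNA, and the fragments pulled down with the tagged protein are sequenced. CLIP and input of a replicate shared a lysate, of which 2% was kept as input, and the table captions call the replicates biological. The libraries hold no untagged strain and no mock pulldown, so CLIP over input cannot tell RNA touched by ADR-1 from RNA retained by the beads. The whole animal is the unit, so a site used in few cells and a site with less RNA per cell cannot be told apart.

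ADR-1 is a double-stranded RNA binding protein of the ADAR family without deaminase activity of its own, known to influence which adenosines the active enzyme ADR-2 converts to inosine. Chaperones bind unfolded proteins and help them reach or keep their shape. HSP70 proteins do so in cycles driven by ATP, J-domain proteins deliver clients to HSP70 and stimulate its ATPase, and the chaperonin, a double ring of 8 kinds of subunit, encloses clients such as actin and tubulin.

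Library totals recovered from the deposited statistics were 5770330 to 5776766 reads for CLIP and 2474089 to 4248635 reads for the inputs. The 636 clusters took 2.24%, 0.485% and 1.38% of the CLIP totals in replicates 1, 2 and 3, and 0.130%, 0.0755% and 0.131% of the input totals. No deposited count was 0; the lowest was 1 in each input and in CLIP replicates 2 and 3, and 6 in CLIP replicate 1, so an input count of 1 may stand for 0. The 3 CLIP totals were equal within their error, and whether each is that library's own depth is unknown. Levels are given below as RPM, reads per 1000000 of these totals, and carry that limit.

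All 6 chaperone clusters lay in 3' UTRs, 100% of each within the annotated 3' UTR, and all were on the minus strand. Of the 636 clusters, 431 (67.8%) were in 3' UTRs and 309 (48.6%) on the minus strand. By gene, 232 of 290 protein-coding genes with a cluster (80%) had one in a 3' UTR. Coordinates are as deposited, on ce11 (WBcel235), with a counting base (0 or 1) that no source states. Widths are the end minus the start, and distances to a gene's 3' end use the RefSeq gene limits of the same build.

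The dnj-24 cluster (WBGene00001042) spanned chr III, 5415959 to 5416092, a width of 133 bases. Its near edge was 370 bases from the 3' end of the gene, which runs over 3977 bases. The hsp-6 cluster (WBGene00002010) spanned chr V, 4824303 to 4824449, and was the widest of the 6 at 146 bases. It was also nearest to its gene's 3' end, at 179 bases. The cct-8 cluster (WBGene00021934) spanned chr IV, 1087601 to 1087687, 86 bases wide and 493 bases from the gene's 3' end.

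The 3 clusters of dnj-20 (WBGene00001038) formed an array of 272 bases on chr II and are called upstream, middle and downstream in the direction of transcription. The upstream cluster, 9618301 to 9618354, was the narrowest of the 6 at 53 bases. The middle cluster, 9618215 to 9618298, was 83 bases wide and began 3 bases away from the upstream one. The downstream cluster, 9618082 to 9618154, was 72 bases wide and separated from the middle one by 61 bases. Among all neighbouring 3' UTR clusters of a gene the median gap was 60 bases over 199 pairs, and 6 of these pairs had a gap of 3 bases or less. Of 232 genes with a 3' UTR cluster, 126 had 1, 61 had 2, 15 had 3 and 30 had more than 3.

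The array sat farther inside its gene than the other clusters, with near edges 832, 746 and 613 bases from the 3' end of dnj-20. Over the 407 3' UTR clusters that fell inside the RefSeq gene of their name, the median was 373 bases. The upstream, middle and downstream clusters lay farther in than 88.0%, 82.1% and 72.5% of them, and the hsp-6 cluster farther in than 21.6%. No cluster of another gene lay within 2000 bases of any of the 6, and no other RefSeq gene overlapped one. Beyond the 3' end, the next gene was csn-4 at 95 bases for cct-8 and hal-3 at 344 bases for dnj-20, neither of which is a member.

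**Figure D1:**
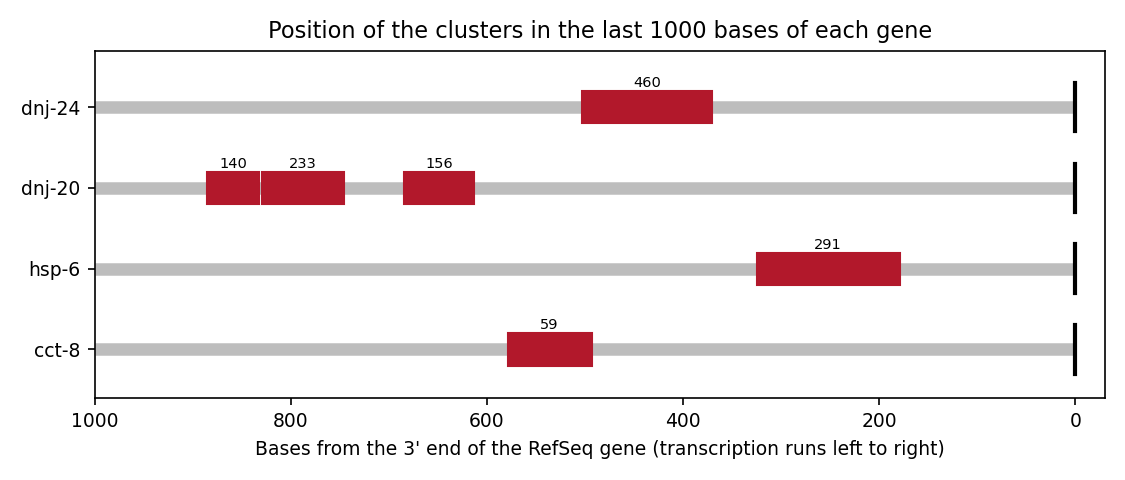
Clusters (red) drawn to scale within the last 1000 bases of each RefSeq gene (grey), with the gene's 3' end (black bar) at 0 on the right; the x axis is in bases and the number over a cluster is its CLIP reads summed over 3 replicates. The dnj-20 array, with 140, 233 and 156 reads, lies 613 bases or more from the 3' end, and the hsp-6 cluster lies 179 bases from it.

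dnj-24 had the highest CLIP signal of the 6 clusters. The cluster held 227, 69 and 164 CLIP reads in replicates 1, 2 and 3, against 1 input read in each. In RPM these were 39.3, 12.0 and 28.4 in CLIP and 0.240, 0.404 and 0.235 in input. The lowest CLIP library thus stood far above the highest input library. The pooled ratio, scaled to library totals, was 96.3 with a 95% exact binomial interval of 32.8 to 469, an interval that covers counting error only, as do those below.

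hsp-6, whose product imports and folds proteins in the mitochondrial matrix and whose transcription is a standard reporter of mitochondrial stress in worms, had 155, 37 and 99 reads in CLIP; its inputs held 2, 2 and 5. In RPM these were 26.8, 6.41 and 17.1 in CLIP and 0.481, 0.808 and 1.18 in input. The groups did not overlap, and the pooled ratio was 20.3 (10.6 to 44.9).

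In dnj-20, the middle cluster held 112, 33 and 88 reads in CLIP and 2 in each input, with a pooled ratio of 24.4 (11.04 to 67.2). The upstream cluster held 84, 11 and 45 in CLIP and 1, 2 and 2 in input, with a pooled ratio of 17.6 (7.36 to 55.0). The downstream cluster held 66, 22 and 68 in CLIP and 1, 5 and 3 in input, with a pooled ratio of 10.9 (5.59 to 24.3). CLIP exceeded input in every replicate at all 3 sites. The replicate 2 values were closest, at 1.91 RPM in CLIP and 0.808 RPM in input upstream, and 3.81 RPM in CLIP and 2.02 RPM in input downstream.

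Of the reads in the dnj-20 array, the middle cluster took the largest share in each CLIP library: 42.7% (95% Wilson interval 36.9 to 48.8), 50.0% (38.3 to 61.7) and 43.8% (37.1 to 50.7) in replicates 1, 2 and 3. The upstream cluster took 32.1% (26.7 to 37.9), 16.7% (9.57 to 27.4) and 22.4% (17.2 to 28.6). The downstream cluster took 25.2% (20.3 to 30.8), 33.3% (23.2 to 45.3) and 33.8% (27.6 to 40.6). The middle cluster is also the widest of the array. Per 100 bases, CLIP replicate 1 had 158 reads upstream, 135 in the middle and 91.7 downstream, while in replicate 2 the values were 20.8, 39.8 and 30.6 and in replicate 3 84.9, 106 and 94.4, so replicate 1 was densest upstream and the other two in the middle. The order of upstream and downstream shares differed between libraries, with upstream larger in replicate 1 and smaller in replicates 2 and 3. The inputs held 4, 9 and 7 reads in the whole array, too few to set a distribution beside these shares.

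cct-8 had the fewest reads, 32, 9 and 18 in CLIP against 1, 2 and 1 in input. In RPM these were 5.54, 1.56 and 3.12 in CLIP and 0.240, 0.808 and 0.235 in input. Its groups did not overlap, and the pooled ratio of 9.27 had an interval of 3.43 to 35.1.

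**Figure D2:**
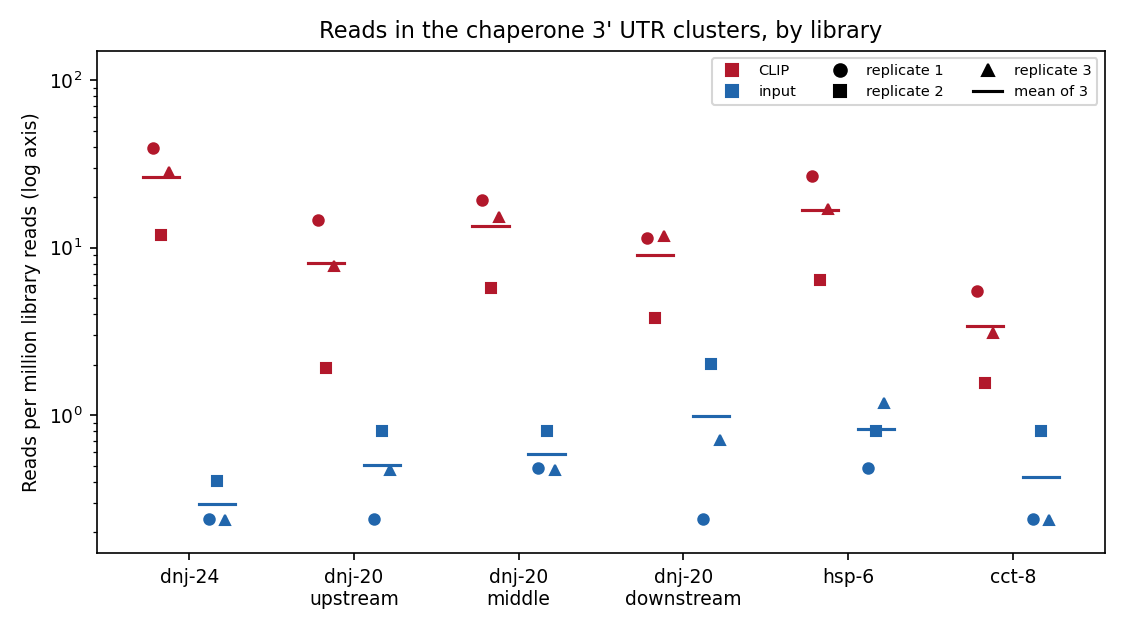
RPM (reads per 1000000 library reads) on a log axis for each of the 6 clusters; CLIP libraries are red and stand left of the input libraries in blue, symbols mark replicates 1 to 3 and bars the mean of 3. Every CLIP library lies above every input library of its cluster, and replicate 2 is the lowest CLIP library at all 6.

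In all 6 clusters the lowest CLIP library exceeded the highest input library in RPM. The same held in 559 of the 636 clusters (87.9%) and in 411 of the 431 3' UTR clusters (95.4%). In each cluster, replicate 2 gave the lowest CLIP level, and the scaled ratio ran highest in replicate 1, then 3, then 2. The same order held in 355 of 431 3' UTR clusters (82.4%), and was thus common in the class. Between clusters, CLIP reads per 100 bases were densest in dnj-24, at 346 summed over replicates, and sparsest in cct-8, at 68.6. The dnj-20 clusters had 264, 281 and 217 from upstream to downstream, and hsp-6 had 199, against a median of 186 over 3' UTR clusters.

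The scaled log2 ratio, the log2 of CLIP over input reads per library total with 1 read added to each count, averaged 5.40 ± 1.31 for dnj-24 (SD, n = 3 here and below). For dnj-20 it was 3.83 ± 1.35 in the middle cluster, 3.07 ± 2.11 in the upstream and 2.99 ± 2.02 in the downstream cluster. For hsp-6 it was 3.76 ± 1.40 and for cct-8 2.30 ± 1.59. All 18 values, 3 replicates of 6 clusters, were above 0, as were those of most 3' UTR clusters. The list had been selected for enrichment on the same libraries, so this is no trait of the chaperone genes. The authors' deposited table, whose scaled ratio adds no read, gives 7.35, 4.89 and 6.91 for dnj-24 and 4.53, 0.95 and 3.73 for cct-8 in replicates 1, 2 and 3.

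By this mean, dnj-24 ranked 31 of 636 clusters and 30 of the 431 in 3' UTRs. The middle cluster of dnj-20 ranked 164 of 431, hsp-6 173, the upstream and downstream clusters of dnj-20 247 and 260, and cct-8 351. The median over the 6 was 3.42, against 3.41 over all 3' UTR clusters. The 6 means ran from 2.30 to 5.40, within a range of 0.95 to 7.47 for the class.

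Much of the spread between replicates was common to the class. The median 3' UTR cluster had a scaled log2 ratio of 4.54, 1.78 and 3.83 in replicates 1, 2 and 3. Measured from that median, dnj-24 stood at 1.82, 2.13 and 2.09, a mean of 2.01 ± 0.17. cct-8 stood at -0.97, -1.26 and -1.03, a mean of -1.09 ± 0.16. Both kept their distance from the class median in all 3 replicates, dnj-24 above it and cct-8 below it.

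The other genes were closer to the class median. The middle cluster of dnj-20 was above it in 3 of 3 replicates, by 0.22, 0.50 and 0.62, a mean of 0.45 ± 0.20. hsp-6 was above it in replicates 1 and 2 and below it in replicate 3, with a mean of 0.38 ± 0.51, within its spread. The upstream and downstream clusters of dnj-20 were above it in replicate 1 alone, with means of -0.31 ± 0.70 and -0.39 ± 0.59, also within their spread. Both were lowest in replicate 2, the downstream cluster at -1.06. The SDs of their scaled ratios were larger than those of 90.7% (upstream) and 87.9% (downstream) of 3' UTR clusters.

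**Figure D3:**
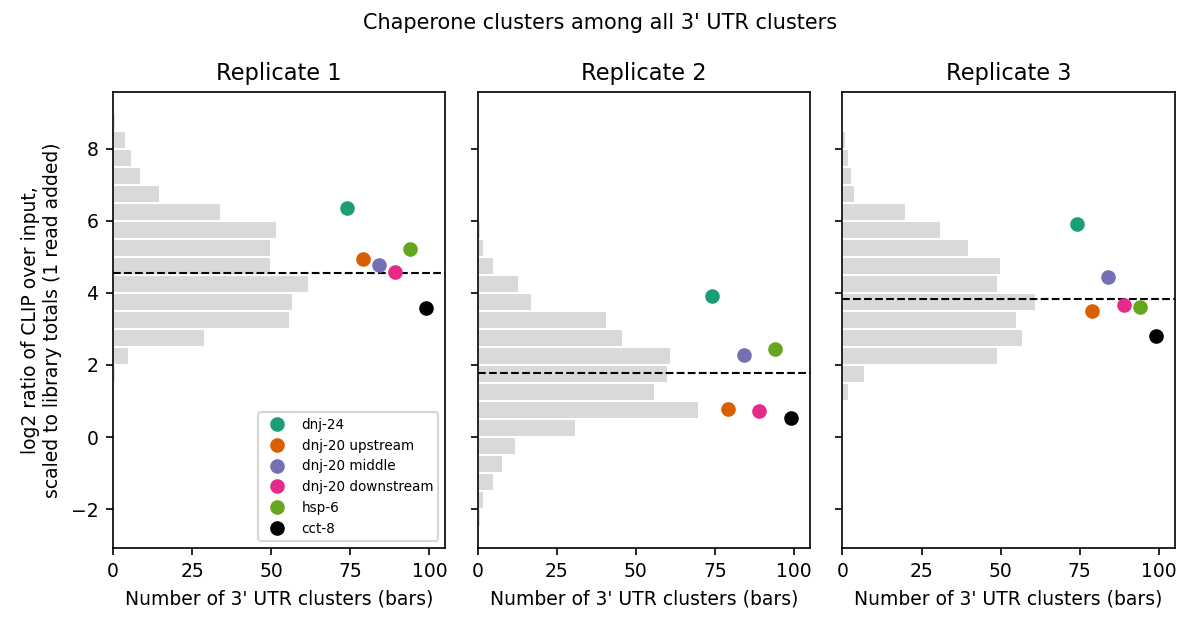
Scaled log2 ratio of CLIP over input (1 read added) in each replicate; grey bars count all 431 3' UTR clusters in steps of 0.5, the dashed line is their median and coloured points, spread sideways for visibility, are the 6 chaperone clusters. The dnj-24 point lies 1.82 to 2.13 above the median in each panel and the cct-8 point 0.97 to 1.26 below it.

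All 15 pairs of the 6 clusters were compared within replicates. dnj-24 exceeded each of the other 5 in 3 of 3 replicates, by 1.57 ± 0.08 over the middle cluster of dnj-20, by 1.64 ± 0.61 over hsp-6 and by 3.10 ± 0.30 over cct-8 on the log2 scale. cct-8 was below each of the others in 3 of 3 replicates, with a difference of 0.69 ± 0.43 from the next in order, the downstream cluster of dnj-20. The middle cluster of dnj-20 and hsp-6, neighbours in the order, differed by 0.07 ± 0.68. The upstream and downstream clusters of dnj-20 differed by 0.08 ± 0.26. An exact two-sided sign-flip test cannot go below p = 0.25 with 3 replicates, and 11 of the 15 pairs had that value, 0.341 after Benjamini-Hochberg adjustment over the 15.

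The authors' deposited table gives a p-value per cluster and replicate from a chi-square or Fisher test. In replicates 1 and 3 the p-value was under 0.05 for all 6 clusters, as for 99.8% and 99.5% of the 636. In replicate 2 it was under 0.05 for 3 of the 6, against 46.7% of the 636 and 230 of the 431 3' UTR clusters. In all 3 replicates it was under 0.05 for dnj-24, the middle cluster of dnj-20 and hsp-6, 3 of 6. The list as a whole had 46.1% and the 3' UTR clusters 53.4%. For the other clusters the deposited replicate 2 p-values were 0.368 upstream and 0.274 downstream in dnj-20 and 0.523 in cct-8.

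The counts behind those replicate 2 values were small. The ratio scaled to library totals was 2.36 (95% exact binomial interval 0.515 to 21.9) in the upstream cluster of dnj-20, 1.89 (0.697 to 6.38) in the downstream cluster and 1.93 (0.399 to 18.4) in cct-8. These intervals include 1, so no enrichment was detectable at those counts, and they also include folds well above 1. In the same replicate dnj-24 had a ratio of 29.6 (5.14 to 1185).

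CLIP was then compared with input across all reproducible clusters by edgeR's quasi-likelihood test, with library sizes set to the recovered totals. The filter on low counts passed 4 of the 6 chaperone clusters, and all 4 were higher in CLIP, as were 450 of the 463 clusters tested (97.2%). The clusters had been selected for enrichment on the same libraries, and these 4 passed the filter through their CLIP libraries, where they are high. The calls and their adjusted p-values thus describe the list and say nothing particular of the chaperone genes. The fitted log2 fold was 6.43 ± 1.26 for dnj-24 (SE, adjusted p = 3.64e-06), 4.51 ± 1.07 for the middle cluster of dnj-20 (adjusted p = 4.36e-05), 4.31 ± 1.07 for hsp-6 (adjusted p = 8.80e-05) and 3.27 ± 0.91 for the downstream cluster of dnj-20 (adjusted p = 0.000416). Each edgeR SE here and below is the log2 fold over the square root of the test's F statistic, not an estimate of the model itself. With input counts of 1 taken as 0, the fold of dnj-24 became 9.96, a value that depends on the prior count of the fit, since all 3 inputs are then 0.

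The upstream cluster of dnj-20 and the cct-8 cluster did not pass the filter. With every cluster tested, edgeR gave log2 folds of 4.01 ± 1.00 for the upstream cluster of dnj-20 (SE, adjusted p = 0.000147) and 3.05 ± 0.97 for cct-8 (SE, adjusted p = 0.00234), and 715 of 736 clusters (97.1%) were then higher in CLIP. With a library left out, cct-8 entered the test in 4 cases and its edgeR adjusted p was highest without input replicates 1 and 3, at 0.0462 and 0.0466.

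Of the 4 clusters that passed the filter, all except dnj-24 lost their call under another scaling. TMM and the size factors of DESeq2 take their scale from the clusters themselves, so a fold is then relative to the other clusters. In edgeR the median log2 fold over 463 clusters was 0.37 with TMM and 4.44 with library totals. In DESeq2 the median over 736 was -0.17 with its own size factors and 3.93 with library totals. Under TMM scaling, dnj-24 was higher in CLIP at a log2 fold of 2.55 ± 0.50 (SE, edgeR adjusted p = 0.00904), as did 90 of 463 clusters (19.4%). With DESeq2 and its own size factors it stood at 2.63 ± 0.89 (SE, adjusted p = 0.0132). It was 1 of 79 clusters called higher among 736 fitted (10.7%), of which cct-8 got no adjusted p. The other 3 stood under TMM at 0.55 for the middle and -0.59 for the downstream cluster of dnj-20 and 0.23 for hsp-6, with edgeR adjusted p of 0.613, 0.479 and 0.823.

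**Figure D4:**
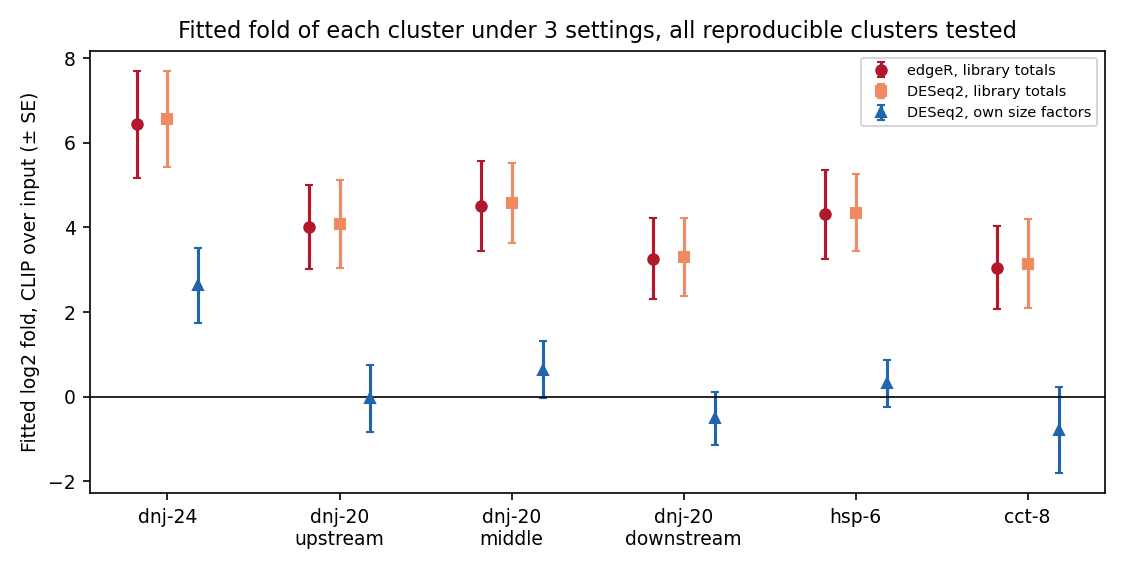
Fitted log2 fold of CLIP over input with its standard error for each cluster, all 736 clusters fitted. Settings are edgeR with library totals (red circles), DESeq2 with library totals (orange squares) and DESeq2 with its own size factors (blue triangles). The edgeR standard error is the log2 fold over the square root of its F statistic. With library totals all 6 lie above 3, and with size factors taken from the clusters themselves dnj-24 alone stays far from 0, at 2.63.

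The 4 genes were a small part of the chaperone network. A list of 95 names of chaperone and co-chaperone genes held 91 symbols of the reference, and 4 of the 91 (4.4%) had a cluster, the same 4 genes in the uniquely annotated and in the reproducible list. Over all 19983 RefSeq protein-coding genes, 290 (1.45%) had one. No enrichment was tested, because the genes were chosen with earlier results of these data known.

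By family, 2 of 29 J-domain genes had a cluster, dnj-24 and dnj-20. Of the 8 chaperonin subunit genes, which form one complex, cct-8 alone had one, and of the 10 genes listed as mitochondrial chaperones hsp-6 alone. There was none for the 11 cytosolic and endoplasmic reticulum HSP70 and HSP110 genes, the 12 HSP90 and co-chaperone genes, the 14 small heat shock protein genes, the 6 prefoldin genes, the 2 lectin chaperone genes or hsf-1, the gene of the heat shock transcription factor. The listed name daf-21, for the cytosolic HSP90, was no symbol of the reference, so that gene is not among the 12. dnj-10 and dnj-21 were counted both as J-domain and as mitochondrial genes, and trap-1, among the 10 listed as mitochondrial, names a translocon-associated protein in C. elegans. The tables hold only clusters that passed the authors' selection, so a gene without one may still have had CLIP reads.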

How the data were processed

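Reads were trimmed with fastp 0.21.0 and mapped with STAR 2.7.10b to ce11 (WBcel235), per the submitters' processing notes. Clusters came from CLIPPER and were annotated with WormBase WS275, per the file headers. For each cluster the authors deposited raw counts of reads in each library, p-values per replicate, an unscaled log2 fold with 1 read added to CLIP and input, and a log2 ratio scaled for library totals, matched here within 0.002 in 736 of 736 clusters of each replicate. The authors deposited further columns of another kind, a chi-square score per cluster and the share of each cluster in a 3' UTR.

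Library totals were recovered by fitting the Yates-corrected chi-square to the deposited scores (130 of 130, 76 of 76 and 116 of 116 met), with standard errors of 0.0345%, 1.06% and 0.0911% for replicates 1, 2 and 3, a step tested on simulated scores. edgeR 4.0.16 (filterByExpr, glmQLFTest, Benjamini-Hochberg, threshold 0.05) was run on all 736 reproducible clusters and tested on simulated counts. The simulated counts had less spread than these data and no floor of 1, so that test does not carry over to these fits. DESeq2 1.42.0, other scalings, no filter, a replicate block, other pseudocounts and left-out libraries were alternatives. Python 3.11.15 with scipy 1.17.1 did the rest. CLIP and input of a number share a lysate, per the labels' protocols. The correlations of their deviations from the group means over clusters were 0.332, 0.113 and 0.00162. Pairs of differing number gave -0.281 to 0.105, so replicate 1 alone stood clearly above them.

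The genes named were the 4 members, with all their clusters, every listed chaperone gene with a cluster, and other genes with a cluster within 2000 bases, of which there were none; the next genes past the 3' ends were added after the values were seen. Members and lists were chosen with earlier results of these data known. Of the listed names, 4 were no RefSeq symbol and were left out. Y22D7AL.5 and C01G10.8 are other names of hsp-60 and ahsa-1, which were counted under those symbols. R151.7 is another name of hsp-75, which was not counted, and daf-21 matched no gene. With aliases added, 4 of 92 distinct genes (4.35%) had a cluster. Sequences were not analysed here.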

Additional observations from a re-analysis of the deposited data

How the results depend on the processing

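With the recovered totals, 450 of 463 clusters were called higher in CLIP; the count was 715 without the filter and 716 with DESeq2, since more clusters entered, and 90 under TMM and 79 with DESeq2's own size factors, which centre the list. Leaving out 1 library gave 393 to 679, highest without CLIP replicate 2, where 680 clusters entered. Chaperone clusters called were 4 of 4 tested, beside 450 of 463 over all clusters. They were 1 of 4 under TMM, beside 90 of 463, and 1 of 6 fitted with DESeq2's own size factors, beside 79 of 736. With a library left out, every chaperone cluster that entered was called. This was 4 of 4 without CLIP replicate 1 or 3, beside 393 of 426 and 407 of 431. It was 6 of 6 without CLIP replicate 2, beside 679 of 680, and without any 1 input, beside 593 to 675 of 731. Under TMM and DESeq2's own size factors the log2 folds were 0.55 and 0.63 for the middle cluster of dnj-20, 0.23 and 0.31 for hsp-6, and -0.59 and -0.51 for the downstream cluster of dnj-20. The replicate block, which pairs CLIP and input of a lysate, gave 451 calls of 463. Its log2 folds were 6.42 for dnj-24, 4.46 and 3.27 for the middle and downstream clusters of dnj-20 and 4.23 for hsp-6. These 4 clusters kept their calls. Across left-out libraries the log2 fold ran from 6.04 to 6.79 for dnj-24, 4.15 to 4.88 and 2.76 to 4.18 for those dnj-20 clusters, and 3.79 to 4.69 for hsp-6, with the largest adjusted p (edgeR) of 0.0377 in the downstream cluster of dnj-20. Input counts of 1 to 5 limit every fold. For all 6 clusters the mean scaled ratio moved by less than 1 SD with unscaled counts or with 0.5 or 0 reads added, and with a replicate left out. Without replicate 2 it became 4.22, 4.13 and 3.19 for the upstream and downstream clusters of dnj-20 and cct-8, against 3.07, 2.99 and 2.30 with all 3; over left-out replicates it ran from 2.14 to 4.22, 2.19 to 4.13 and 1.66 to 3.19. For dnj-24, the middle cluster of dnj-20 and hsp-6 it ran from 4.92 to 6.14, 3.36 to 4.60 and 3.03 to 4.42.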
